A study of Mus musculus with 2 samples.

Results

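The leukotriene and prostaglandin synthesis enzymes turn arachidonic acid, a fatty acid held in membrane lipids, into short-lived signalling lipids called eicosanoids. The 10 genes considered were 3 lipoxygenases (Alox5, Alox12 and Alox15), the activating protein of 5-lipoxygenase (Alox5ap), the enzymes that finish the leukotrienes (Lta4h and Ltc4s), the cyclooxygenases (Ptgs1 and Ptgs2) and a pair of terminal prostaglandin synthases (Hpgds and Ptges). They were chosen by function, with earlier results of these data known. A gene counted as measured where a probe set of the array was annotated with that gene alone. This held for 9 of the 10 genes, each with 1 probe set, out of 19935 genes in all. Ptgs1 had no such probe set and was not analysed here.

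The RNA came from bone marrow of ddY mice, which are outbred, at 6 weeks of age. Mononuclear cells of a density gradient were stained with antibodies against RANK, the receptor of the osteoclast-inducing cytokine RANKL, and against c-Fms, the receptor of M-CSF, and sorted by flow cytometry. The RANKhighFmslow cells (RANKhigh cells below) were compared with the RANKlowFmshigh cells (Fmshigh cells below), in a study of osteoclast precursors. Both populations came from the same strain and tissue, carried no labelled genetic change or treatment, and were measured on 1 array each, and how many mice each array stands for is not given in the sources used here. Every value below is therefore a single intensity with no replicate error. No difference has a replicate check, no test was possible, and the number of arrays limits the precision.

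Lipoxygenases add oxygen to arachidonic acid. With the help of its activating protein, 5-lipoxygenase makes leukotriene A4, from which Lta4h makes leukotriene B4, an attractant of neutrophils, and Ltc4s makes leukotriene C4, a mediator released by eosinophils, basophils and mast cells. Cyclooxygenases make prostaglandin H2 instead, which Hpgds turns into prostaglandin D2 and Ptges into prostaglandin E2. In bone, prostaglandin E2 is known to act on osteoblasts and to favour osteoclast formation through RANKL.

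Intensities of all probe sets had a median of 94.5 in RANKhigh cells and 92.6 in Fmshigh cells. Background was gauged from 1193 genes of olfactory and vomeronasal receptors, proteins of sensory neurons. The 95th percentile of their intensities was 83.7 in RANKhigh cells and 81.8 in Fmshigh cells. Of the 9 measured enzymes, 8 lay above it in RANKhigh cells and 7 in Fmshigh cells. Where genes had exactly 2 probe sets (558 genes above the level filter described next), the median gap between their log2 differences was 0.19 and the 90th percentile 0.67. This gap measures how far 2 probe sets disagree on the difference between the same 2 arrays, and not replicate error. The transcript of c-Fms, Csf1r, stood at 164 in RANKhigh cells and 821 in Fmshigh cells, in the direction of the sort. That of RANK, Tnfrsf11a, stood at 104 in RANKhigh cells and 119 in Fmshigh cells. Its log2 difference of -0.20 was about the size of the median gap of 0.19, so it showed no clear difference in either direction. Both values of Tnfrsf11a came from 1 probe set near background. They were 1.24 times the receptor genes' 95th percentile in RANKhigh cells and 1.46 times in Fmshigh cells. RANKhigh therefore names the surface sort, and these values do not settle the level of the transcript.

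The enzymes did not differ in a common direction. Alox15 was 3.60-fold higher in RANKhigh cells, Alox5ap was 1.99-fold lower there, Alox5 was 1.66-fold higher, and the other 6 measured enzymes were less than 1.5-fold apart. A gene was counted as different at 2-fold or more, a log2 difference of 1, where its higher intensity reached 93.6, the median of all values, a level filter that 11089 genes passed. Of the 9 measured enzymes 7 passed this filter. Ltc4s, at 93.4, lay just outside it, and Ptges lay below it at 75.8. By this rule 1 enzyme, Alox15, was higher in RANKhigh cells, beside 4.34% of all 11089 genes, and 0 were lower, beside 4.26% of all genes. At 1.5-fold or more in either direction, 3 of the 7 were apart (Alox15, Alox5ap and Alox5), beside 22.9% of all 11089 genes. Over the 9 enzymes 5 differences were above 0 and 4 below, Ptges, not above background, among the 4, with a median of 0.12, against a median of 0.01 over all 19935 genes. Over the 7 that passed the filter the median was also 0.12, against -0.01 over all genes that passed.

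**Figure D1:**
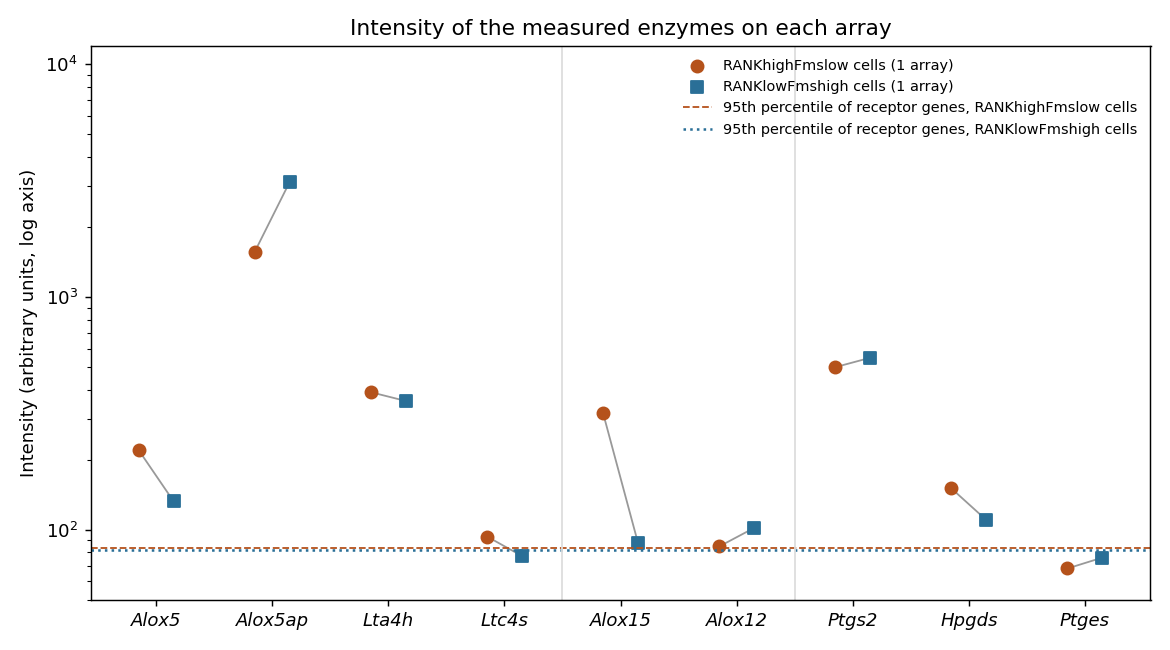
Intensity of each measured enzyme (vertical log axis, arbitrary units) in RANKhighFmslow cells (circles) and RANKlowFmshigh cells (squares), 1 array each, with leukotriene, other lipoxygenase and prostaglandin genes set apart by grey lines and the receptor genes' 95th percentiles as broken lines. Alox15 stands at 316 in RANKhighFmslow cells and near the broken lines in RANKlowFmshigh cells, Alox5ap at 1567 and 3120, and Ptges lies below the lines in both.

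Among the lipoxygenases, Alox15 carried the largest difference of the 9 enzymes. It encodes the 12/15-lipoxygenase, known in mice from eosinophils and resident macrophages and first described in rabbit reticulocytes. Its intensity was 316 in RANKhigh cells and 87.9 in Fmshigh cells, a log2 difference of 1.85. The value in Fmshigh cells was 1.07 times the receptor genes' 95th percentile on that array, so it was barely above the guide to background, and that in RANKhigh cells was 3.78 times the percentile of its own array. Of the genes above the level filter, 1.66% were as far apart or further in either direction.

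Alox12, the platelet-type 12-lipoxygenase, did not share this difference, although it lies beside Alox15 on chromosome 11 with 1 protein-coding gene, Alox12e, between them. It stood at 84.6 in RANKhigh cells and 102 in Fmshigh cells, a log2 difference of -0.26. The value in RANKhigh cells was 1.01 times the receptor percentile and that in Fmshigh cells 1.24 times, so Alox12 was at the edge of background in both. The difference of Alox15 exceeded that of Alox12 by 2.11 on the log2 scale. The other 4 lipoxygenase genes measured (Alox8, Alox12b, Aloxe3 and Alox12e), several of them known from skin, were all below the receptor percentile on both arrays, so no difference can be stated for them.

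Alox5 and Alox5ap, whose products work together at the nuclear membrane, differed in opposite directions. Alox5, the 5-lipoxygenase, stood at 219 in RANKhigh cells and 132 in Fmshigh cells, a log2 difference of 0.73 and 1.66-fold higher. Alox5ap, the membrane protein that presents arachidonic acid to it, stood at 1567 in RANKhigh cells and 3120 in Fmshigh cells, a log2 difference of -0.99. It therefore lay just inside the 2-fold threshold, and when each array was centred on its own median, which shifts every difference by 0.03 downward, it passed at -1.02. Both genes were above the receptor percentile on both arrays, Alox5ap at 18.7 times that percentile in RANKhigh cells and 38.1 times in Fmshigh cells. Alox5 was at 2.62 times the percentile in RANKhigh cells and 1.62 times in Fmshigh cells. The difference of Alox5 exceeded that of Alox5ap by 1.72 on the log2 scale.

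The enzymes downstream of 5-lipoxygenase differed little. Lta4h, the hydrolase that makes leukotriene B4, stood at 390 in RANKhigh cells and 357 in Fmshigh cells, a log2 difference of 0.12. That is smaller than the median gap of 0.19 between probe sets of 1 gene. Ltc4s, the leukotriene C4 synthase, stood at 93.4 in RANKhigh cells and 77.1 in Fmshigh cells, where it was not above the receptor genes. By the receptor percentile it was at least 1.14-fold higher in RANKhigh cells. Its measured log2 difference of 0.28 was opposite in sign to that of Alox5ap, a protein of the same membrane family.

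The 250 bases before the annotated start of Alox5 and of Alox12 are shown because these lipoxygenase genes had measured differences of opposite sign and have an entry in the promoter table of RefSeq (build GRCm38.p6). The sign for Alox12 cannot be relied on, because both its values were at the edge of background. Entries were found for 8 of the 10 genes, and Alox15 and Alox5ap are not among them. The sequences run 5′ to 3′ on the gene's own strand, which is the minus strand for both genes, at chr6:116461179-116461428 for Alox5 and chr11:70255371-70255620 for Alox12. Capitals mark the GC box GGGCGG, the letters bound by Sp1-type factors.
Alox5: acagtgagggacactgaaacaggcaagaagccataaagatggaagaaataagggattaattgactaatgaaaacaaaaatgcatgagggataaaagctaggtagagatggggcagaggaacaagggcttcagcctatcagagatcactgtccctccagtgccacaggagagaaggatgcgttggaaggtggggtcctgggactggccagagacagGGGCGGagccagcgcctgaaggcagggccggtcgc
Alox12: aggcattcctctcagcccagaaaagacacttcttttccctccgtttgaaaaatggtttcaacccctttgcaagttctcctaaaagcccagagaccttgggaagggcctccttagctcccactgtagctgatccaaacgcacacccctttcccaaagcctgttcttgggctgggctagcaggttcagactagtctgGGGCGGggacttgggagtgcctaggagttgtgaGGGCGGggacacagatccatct
Alox5 holds 1 GC box, which starts at base -35 from the annotated start, and Alox12 holds 2, at -55 and -22. The motif was searched on both strands in all 8 windows and was also found in those of Ptgs2 (1 match, at -170) and Ptges (2 matches, at -53 and -42). It was thus present in 4 of 8 windows, against 32.7% of 32851 windows of the same length in the table. Of these 4 genes Alox5 had a positive difference. The negative values of Alox12, at the edge of background, and of Ptgs2, smaller than the median gap between probe sets, give no clear direction. Ptges was not above background on either array.

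On the prostaglandin side no measured enzyme reached 1.5-fold. Ptgs2, the inducible cyclooxygenase, stood at 499 in RANKhigh cells and 548 in Fmshigh cells, a log2 difference of -0.13. This was smaller than the gap of 0.19 between probe sets, and both values were well above the receptor percentile, at 5.97 times in RANKhigh cells and 6.70 times in Fmshigh cells. Hpgds, the haematopoietic prostaglandin D synthase known from mast cells, megakaryocytes and some T helper cells, stood at 150.3 in RANKhigh cells and 110.1 in Fmshigh cells. It was 1.37-fold higher, a log2 difference of 0.45. Its values were 1.80 times the receptor percentile in RANKhigh cells and only 1.35 times in Fmshigh cells. The difference was smaller than the 90th percentile of 0.67 for gaps between probe sets. Ptges, the inducible prostaglandin E synthase, stood at 68.1 in RANKhigh cells and 75.8 in Fmshigh cells. Both of its values were below the receptor percentile, so Ptges cannot be called detected or different.

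The window of Hpgds is shown for its match to GAGGAAG, a core sequence of PU.1-type ETS factors, in capitals, 250 bases before the annotated start on the minus strand at chr6:65144731-65144980 (RefSeq, GRCm38.p6).
Hpgds: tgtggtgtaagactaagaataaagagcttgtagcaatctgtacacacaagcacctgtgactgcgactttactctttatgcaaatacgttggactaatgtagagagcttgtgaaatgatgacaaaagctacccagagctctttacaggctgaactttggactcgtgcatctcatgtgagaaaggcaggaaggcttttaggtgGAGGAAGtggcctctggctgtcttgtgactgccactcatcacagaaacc
The match starts at base -49. On either strand this motif was found in 2 of the 8 windows, Hpgds and the unmeasured Ptgs1, against 10.6% of all windows in the table. The cyclic AMP response core CGTCA (17.8% of all windows), the E-box CACGTG (6.02%) and the GATA motif AGATAA (9.99%) had matches in 0 of the 8 windows. A match describes letters in these windows only.

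**Figure D2:**
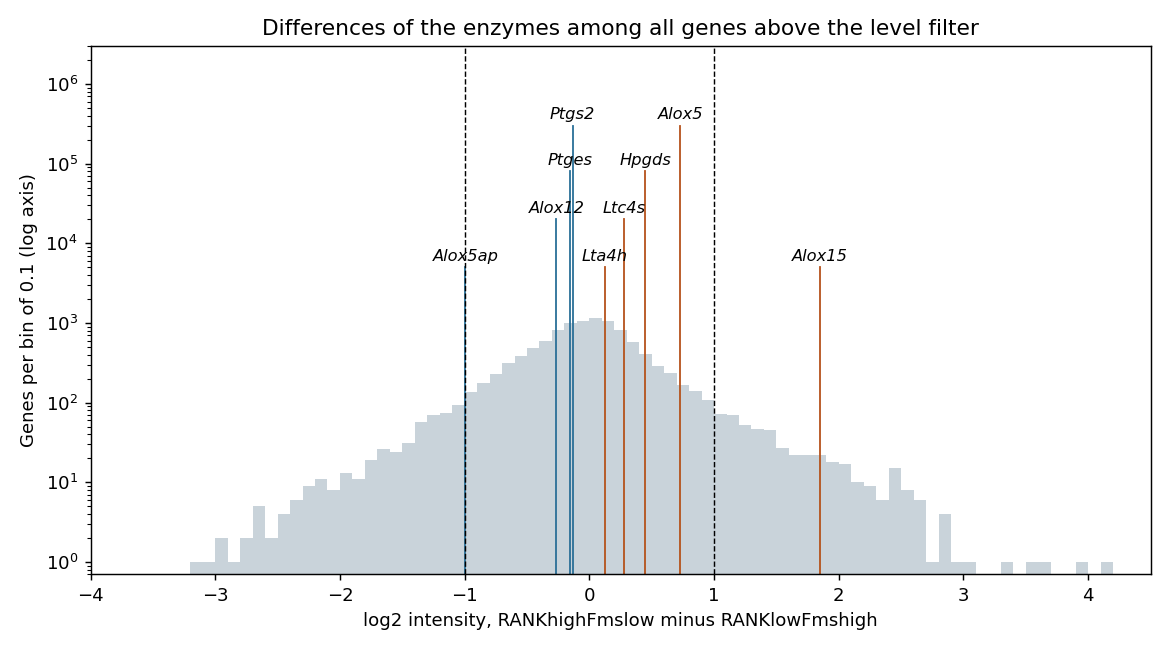
Histogram of the log2 difference (horizontal axis, RANKhighFmslow minus RANKlowFmshigh) of the 11089 genes above the level filter, in bins of 0.1 with a log vertical axis, with a line for each measured enzyme (orange above 0, blue below; heights of the lines are for legibility) and broken lines at 2-fold. Alox15 lies at 1.85, Alox5ap touches the broken line on the left at -0.99, and Ltc4s and Ptges, also drawn, did not pass the filter.

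Other genes of the pathway, taken from 8 lists by role, were compared in the same way. Of 54 measured genes 31 reached the level filter. In RANKhigh cells 4 genes were higher by the 2-fold rule, beside 4.34% of all 11089 genes, and 3 were lower, beside 4.26%, and the median difference was -0.02, or -0.24 over those that passed. The release step was divided. Pla2g4a, the cytosolic phospholipase that frees arachidonic acid for both branches, stood at 142 in RANKhigh cells and 325 in Fmshigh cells, 2.28-fold lower. With 50 added to each intensity its log2 difference was -0.96, just inside the 2-fold threshold. Pla2g12a, a secreted phospholipase, was at least 2.01-fold higher, at 165 in RANKhigh cells and 81.3 in Fmshigh cells, a value not above the receptor genes. It lost this call with the arrays centred on their medians, at a log2 difference of 0.99, and with quantile normalization, at 0.98. The remaining 10 of 12 phospholipases were less than 2-fold apart or below the filter, and the median over the 12 was -0.01. Pla2g4a and Alox5ap, which act before 5-lipoxygenase or beside it, were thus both lower in RANKhigh cells, and Alox5 was higher.

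The microsomal glutathione transferases, relatives of Ltc4s, Alox5ap and Ptges, all passed the 2-fold rule, 2 higher, beside 4.34% of all 11089 genes, and 1 lower, beside 4.26%. Mgst3 stood at 1577 in RANKhigh cells and 380 in Fmshigh cells, 4.15-fold higher. Mgst2, which can also make leukotriene C4, stood at 1774 in RANKhigh cells and 694 in Fmshigh cells, 2.56-fold higher. Mgst1, a detoxifying enzyme of the same family, stood at 480 in RANKhigh cells and 1124 in Fmshigh cells, 2.34-fold lower. Within this family Mgst2 and Mgst3 thus had positive differences and Mgst1 and Alox5ap negative ones. That of Ltc4s was positive, but Ltc4s did not pass the level filter and was not above the receptor genes in Fmshigh cells. For Ptges no direction can be given.

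Among the other prostanoid synthases, Cbr1, a carbonyl reductase that also acts on prostaglandins, was at least 2.38-fold higher in RANKhigh cells, at 194 in RANKhigh cells and 75.8 in Fmshigh cells, where it was not above the receptor genes. The cytosolic prostaglandin E synthase Ptges3, also a co-chaperone of HSP90, stood at 1560.0 in RANKhigh cells and 2238 in Fmshigh cells, a log2 difference of -0.52. The median over the 7 measured genes of this list was -0.24. Of 8 measured genes that act on leukotrienes or related lipids or, like Cotl1, bind 5-lipoxygenase, 4 passed the level filter. By the 2-fold rule 0 were called, beside 4.34% of all 11089 genes higher and 4.26% lower. Ptgr1, a reductase that inactivates leukotriene B4, stood at 1403 in RANKhigh cells and 1637 in Fmshigh cells. Among 6 genes of breakdown and transport 5 passed the level filter and 0 were called, beside the same shares of all genes. The median was -0.56, or -0.68 over those that passed. Differences were negative in 5, of which 1 was below the receptor percentile on both arrays. Ptgr2, a prostaglandin reductase, was the exception at 556 in RANKhigh cells and 421 in Fmshigh cells.

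Of 5 measured leukotriene receptors 2 passed the level filter. Of these 1 was lower by the 2-fold rule, beside 4.26% of all 11089 genes, and 0 were higher, beside 4.34%. Cysltr1, the receptor of cysteinyl leukotrienes, stood at 74.7 in RANKhigh cells, not above the receptor percentile, and 158 in Fmshigh cells. Its measured difference of -1.08 passed the 2-fold rule, but against the receptor percentile it can be called only at least 1.88-fold lower. Ltb4r1, the high-affinity receptor of leukotriene B4, stood at 259 in RANKhigh cells and 185 in Fmshigh cells, a log2 difference of 0.49. Of 9 prostanoid receptors 5 passed the level filter, and the median over the 9 was -0.01. By the 2-fold rule 0 were called, beside 4.34% of all 11089 genes higher and 4.26% lower. With so few genes, 0 does not set this list apart from all genes. Ptger1, another receptor of prostaglandin E2, stood at 199.9 in RANKhigh cells and 144 in Fmshigh cells, a log2 difference of 0.47, and Ptger4, a receptor of the same lipid on immune and bone cells, at 189 in RANKhigh cells and 241 in Fmshigh cells, a log2 difference of -0.35.

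**Figure D3:**
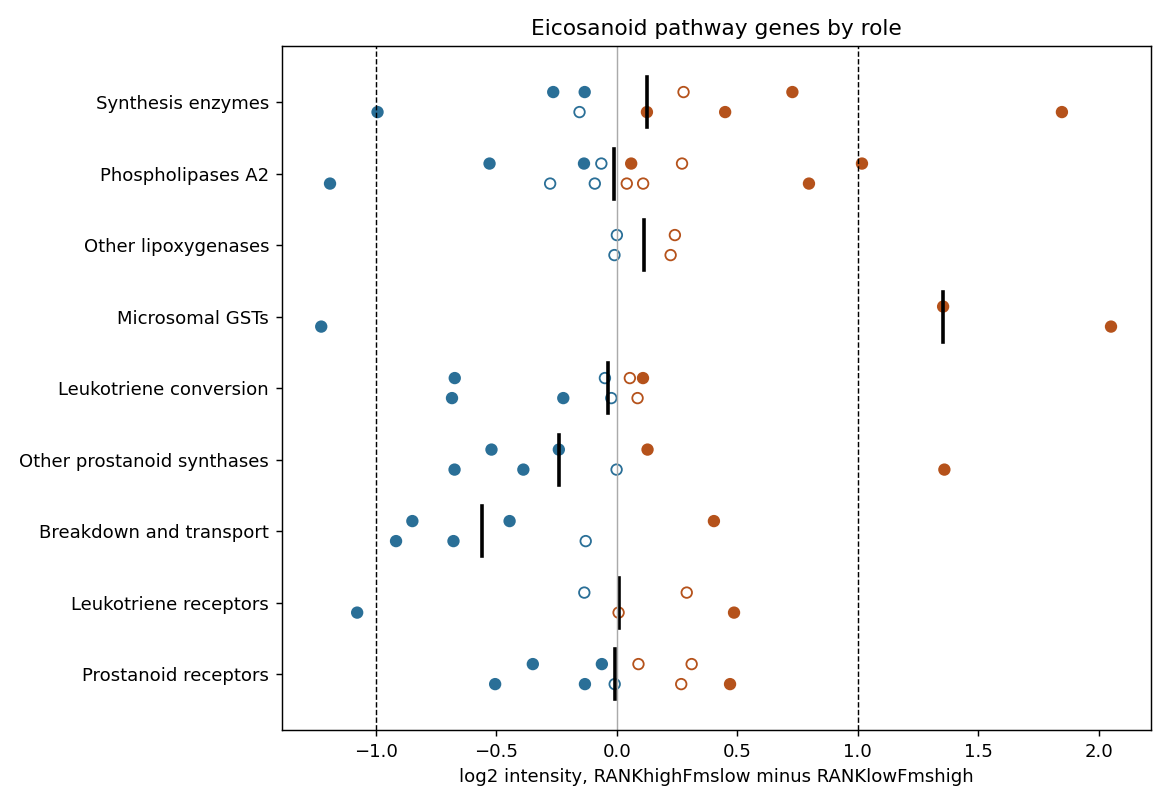
Log2 difference (horizontal axis, RANKhighFmslow minus RANKlowFmshigh) of each measured gene, in rows by role, filled where the gene passed the level filter and open where it did not, with the row's median as a black bar and broken lines at 2-fold. The microsomal glutathione transferases (GSTs) reach from -1.23 to 2.05, the other lipoxygenases are all open, and the breakdown and transport row has a median of -0.56.

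The sorted populations held transcripts of many cell types, and these differed beside the enzymes. Each marker count below is to be read beside the shares of all 11089 genes past the same rule, 4.34% higher and 4.26% lower. The marker lists were chosen with earlier results of these data known, so the counts are descriptive only. In the neutrophil list 9 of 12 markers passed the 2-fold rule in the direction of RANKhigh cells and 0 the other way, with a median of 2.17 and summed intensities of 44217 in RANKhigh cells and 14402 in Fmshigh cells, and Retnlg and Ly6g led the list at 4.11 and 3.34. Of 7 eosinophil markers 5 were higher and 0 lower, with a median of 1.87 and summed intensities of 12331 in RANKhigh cells and 1283 in Fmshigh cells. Prg3 and Ear6 led that list at 3.91 and 3.68, and Epx and Il5ra were not above the receptor genes in Fmshigh cells. Of 12 basophil and mast cell markers 7 passed the level filter, and 5 were higher and 0 lower. The median was 0.72, or 1.56 over those that passed, with sums of 3936 in RANKhigh cells and 1281 in Fmshigh cells. Mcpt8 had the largest difference at 2.63. Cpa3 was at least 2.71-fold higher, as 1 of 7 members not above the receptor genes in Fmshigh cells, and Cd200r3 and Cma1 were not above them on either array.

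Monocyte markers ran the other way, and the shares of all genes beside the counts here are again 4.34% higher and 4.26% lower. Of 9 measured, 6 were at least 2-fold lower in RANKhigh cells and 0 higher, with a median of -1.82 and sums of 5143 in RANKhigh cells and 21252 in Fmshigh cells, led by F13a1 (-3.01) and Fn1 (-2.66). Of 12 macrophage markers 9 passed the level filter, and 2 were higher and 3 lower. The median was 0.01, or -0.06 over those that passed, with sums of 3098 in RANKhigh cells and 5063 in Fmshigh cells. Msr1 at -2.42 and Adgre1 at -1.70 had the largest differences of that list, and Mertk and Spic were not above the receptor genes on either array. The 2 higher were C1qc, at 457 in RANKhigh cells and 152 in Fmshigh cells, and Vcam1, at 598 in RANKhigh cells and 227 in Fmshigh cells. The macrophage list was thus divided in direction. All 7 erythroid markers were higher, with a median of 2.37 and sums of 10736 in RANKhigh cells and 2243 in Fmshigh cells, led by Rhag (2.57) and Ermap (2.44). Megakaryocyte and platelet markers had 1 of 5 higher, Pf4 at 1.76, followed by Ppbp at 0.73, with a median of 0.69 and sums of 2131 in RANKhigh cells and 1058 in Fmshigh cells. All 7 B cell markers were higher (median 2.16, sums of 10222 in RANKhigh cells and 2658 in Fmshigh cells, led by Pax5 at 2.56 and Vpreb3 at 2.43). Of 7 T and NK cell markers 6 were higher (median 1.43, sums of 2923 in RANKhigh cells and 977 in Fmshigh cells, led by Cd3d at 2.62 and Cd3g at 1.98).

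The part of these cell types in the enzymes' differences was not tested. In sorted populations measured in bulk, fewer cells of a type and less RNA per cell cannot be told apart.

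**Figure D4:**
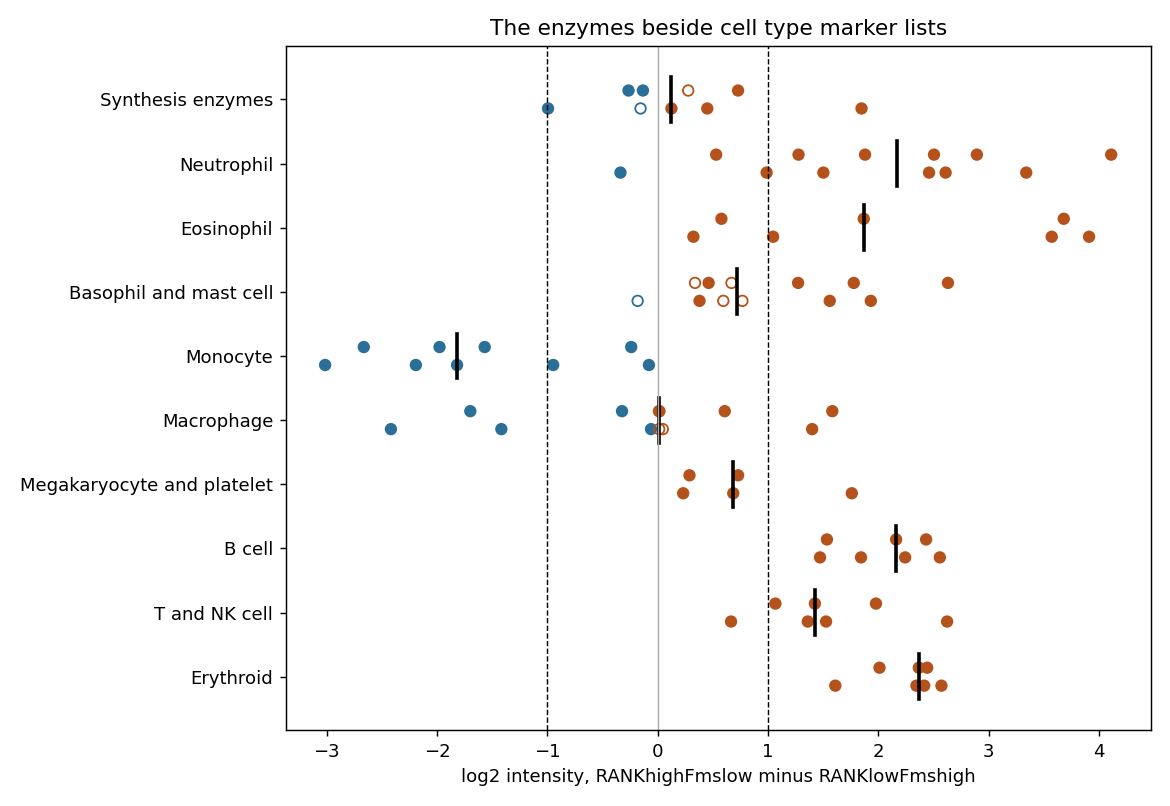
Log2 difference (horizontal axis, RANKhighFmslow minus RANKlowFmshigh) of the measured enzymes and of the markers of each cell type, filled where the gene passed the level filter and open where it did not, with medians as black bars and broken lines at 2-fold. The monocyte row lies wholly below 0 with a median of -1.82, the erythroid and B cell rows wholly above 1, and the enzymes spread from -0.99 to 1.85 around 0.12.

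The genes nearest to Alox15 by Euclidean distance over the log2 values of the 2 arrays were Igkv10-96, an immunoglobulin light chain segment (distance 0.03), Gimap9, a GTPase gene of lymphocytes (0.05), and Syne1, a nuclear envelope protein gene (0.08). Those nearest to Alox5ap were Hp, the haptoglobin gene (0.05), the histone gene H4c4 (0.14) and Rab8b, a vesicle traffic gene (0.16). Hp stood at 1625 in RANKhigh cells and 3095 in Fmshigh cells. Probe sets differ in brightness, so this likeness is one of values on 2 arrays and not of transcript abundance.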

How the data were processed

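Values of 28815 probe sets on 2 arrays, 1 per population, were analysed. The deposited values are linear intensities that the authors had summarised per probe set. GCOS 1.4 and RMA were used per the submitters' processing notes, with no role or order given, and the scaling between arrays is not given in the sources used here. Intensities were put on the log2 scale with no pseudocount. The platform annotation of 2016 named 1 gene for 21780 probe sets, several for 1605 (not used) and was without an entry for 5430. Entrez identifiers of 21689 were found in the GRCm38.p6 gene table. Probe sets of a gene were averaged on the log2 scale.

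Groups came from the source labels. With 1 array per group no test, p-value or SD was computed. Where 1 of a gene's values did not exceed the receptor genes' 95th percentile of its array, the fold was computed against that percentile and is given as "at least". Named are all members, of each pathway list the members at least 2-fold apart and the brightest one, of each marker list the 2 largest differences, and 3 nearest genes for the members with the highest and lowest difference. Alox12b, Aloxe3, Alox12e, Cotl1, Ptger1, C1qc, Vcam1 and the markers named as not above the receptor genes fall outside this rule and were picked with their values known. Members, lists and alternatives were chosen with earlier results of these data known. Python 3.11.15, numpy 2.4.6 and pandas 2.3.3 were used.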

Additional observations from a re-analysis of the deposited data

How the results depend on the processing

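Other scalings, another choice of probe set and 50 added to each intensity gave 36 values for the 9 measured enzymes, all with the same sign as reported, and 35 moved by less than the gap of 0.19 between probe sets. Of these values 9, from the other choice of probe set, equal the reported ones because each enzyme has 1 probe set, and 9, from centring, are all shifted by the same 0.03, so neither set is evidence of stability. The exception was Alox15, at 1.41 with 50 added. Alox15 was at least 2-fold higher under each of the 7 alternatives run, but most could not change its value. The other choice of probe set, the level filters and the 1.5-fold threshold left its log2 difference unchanged by construction, and centring only shifted it by 0.03. It was recomputed otherwise only with quantile normalization, at 1.85, and with 50 added. With each array centred on its median 1 enzyme, Alox5ap, was at least 2-fold lower, in place of 0. At a 1.5-fold threshold 2 enzymes were higher (Alox5 and Alox15), beside 10.5% of all genes, and 1 lower (Alox5ap), beside 12.4%. That threshold gave 5 pathway genes higher, in place of 4, and 9 lower, in place of 3, beside the same shares of all genes. The number of pathway genes higher was 3, in place of 4, with centring and with quantile normalization, Pla2g12a being lost in both. With 50 added, 2 pathway genes were higher, in place of 4, with Cbr1 (0.96) and Pla2g12a (0.71) lost. In the same setting 1 was lower, in place of 3, with Pla2g4a (-0.96) and Cysltr1 (-0.74) lost. Over all genes 319 were higher, in place of 481, and 311 lower, in place of 472. At 1.5-fold, 1168 genes were higher and 1371 lower. Adding a constant shrinks the differences of dim probe sets by construction. No paired analysis was possible because each group has 1 array, and for the same reason no array could be left out. Ltc4s, Alox12, Ptges and the values of Alox15 and Hpgds in Fmshigh cells are limited by signal near background.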
